A study of Mus musculus with 24 samples.

Results

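The transcripts described here encode the enzymes that oxidise fatty acids and the steps that feed them, measured in whole mouse tibialis anterior muscle with and without an intact copy of Hira in the myofibres. A probe row was a member when its annotated symbol, or the current symbol it updates to, began with Acad, Acox, Acot, Acsl, Hadh, Cpt1, Cpt2, Etfa, Etfb or Etfdh, or was Ech1, Echs1, Eci1, Eci2, Ehhadh, Acaa1a, Acaa2, Slc22a5, Crat or Decr1. This gave 51 of 26423 rows and 47 of the 17742 genes tested, of which 46 rows matched by the annotated symbol and 5 only by the current one. Etfbkmt, the methyltransferase of the electron transfer flavoprotein, entered through its name. Cpt1b, the muscle form of the carnitine palmitoyltransferase of the outer membrane, and Etfb, Hadhb, Acot9 and Acot10 were not analysed here.

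Knockout animals were Myf6 cre/+; Hira flox/- and control animals Myf6 cre/+; Hira flox/+, all 6 months old, on a mixed C57BL6/J;129S1/SvImJ background. Each group held 4 animals, and the RNA of each was hybridised 3 times, for 24 arrays. HIRA is a chaperone that deposits the histone variant H3.3 outside DNA replication, and the Cre is driven from the locus of Myf6, a transcription factor of differentiating and mature fibres. Both groups carried the Cre and 1 floxed copy. Control fibres by genotype kept 1 intact copy, whereas knockout animals carried their null copy in every cell, not only in fibres.

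Long-chain fatty acids are tied to coenzyme A, passed into the mitochondrial matrix as carnitine esters, and shortened there by a cycle of dehydrogenation, hydration, a further dehydrogenation and thiolytic cleavage. The acyl-CoA dehydrogenases hand their electrons to the electron transfer flavoprotein and from there, through its membrane dehydrogenase, to ubiquinone. Peroxisomes run a parallel cycle on very long and branched chains and on bile acid intermediates, starting with an oxidase, and thioesterases release free fatty acids from coenzyme A in several compartments. Skeletal muscle draws much of its energy at rest and in long exercise from this pathway.

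The deposited values were linear intensities that shared a median of 626.429 on every array, and the 5th percentile of an array lay between -2.35 and 125. The correlation over genes was 0.985 to 0.995 between hybridisations of 1 animal and 0.967 to 0.987 between arrays of different groups. The Hira probe read 397, 633, 368 and 454 in knockout animals 1 to 4, against 462, 554, 485 and 509 in control animals. The difference of -0.15 on the log2 scale did not pass the test (95% interval -0.51 to 0.22; limma, adjusted p = 0.623), and since the sources used here do not place the probe relative to the deleted part, it does not check the genotypes. The number of arrays and animals limits the precision. In whole muscle, fewer cells of a type and less RNA per cell cannot be told apart.

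Transcripts of fatty acid oxidation were lower in knockout muscle at several steps: carnitine uptake (Slc22a5), the carnitine shuttle (Cpt2, Crat), the acyl-CoA dehydrogenases (Acad12, Acadl, Acads, Acad11), the electron transfer flavoprotein (Etfa, Etfdh) and the isomerase of unsaturated chains (Eci1). Activation to acyl-CoA and the steps from hydratase to thiolase held no member that passed. In all, 10 of 47 members, or 21.3%, were lower and 2, or 4.26%, were higher at an adjusted p under 0.05 (limma, Benjamini-Hochberg over all genes tested). Among all 17742 genes tested, 5.01% were lower and 4.28% higher, 9.28% in either direction. The share of members that were lower thus lay above that of all genes. The 2 higher members were Acox2, the peroxisomal oxidase of branched chains and bile acid intermediates, and Acot7, a cytosolic thioesterase whose direction depends on the probe row: its other row was lower, and with the mean over rows only 1 member, Acox2, was higher. The 4 knockout animals did not overlap the 4 control animals in 14 members, or 29.8%, beside 17.5% of all genes tested. Those were the 12 that passed the test and the thioesterases Acot1 and Acot13.

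The median difference over the 47 members was -0.16 on the log2 scale, beside -0.066 over all genes tested, and 37 members, or 78.7%, lay below 0. At an unadjusted p under 0.05 stood 16 members, and 3 members (Acaa1a, Acot4 and Acot12) stood in both groups at or below 125, the level of the array whose 5th percentile was highest. Values at or below that level are called dim here. Among the 44 members above it in at least 1 group the median was -0.172.

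**Figure D1:**
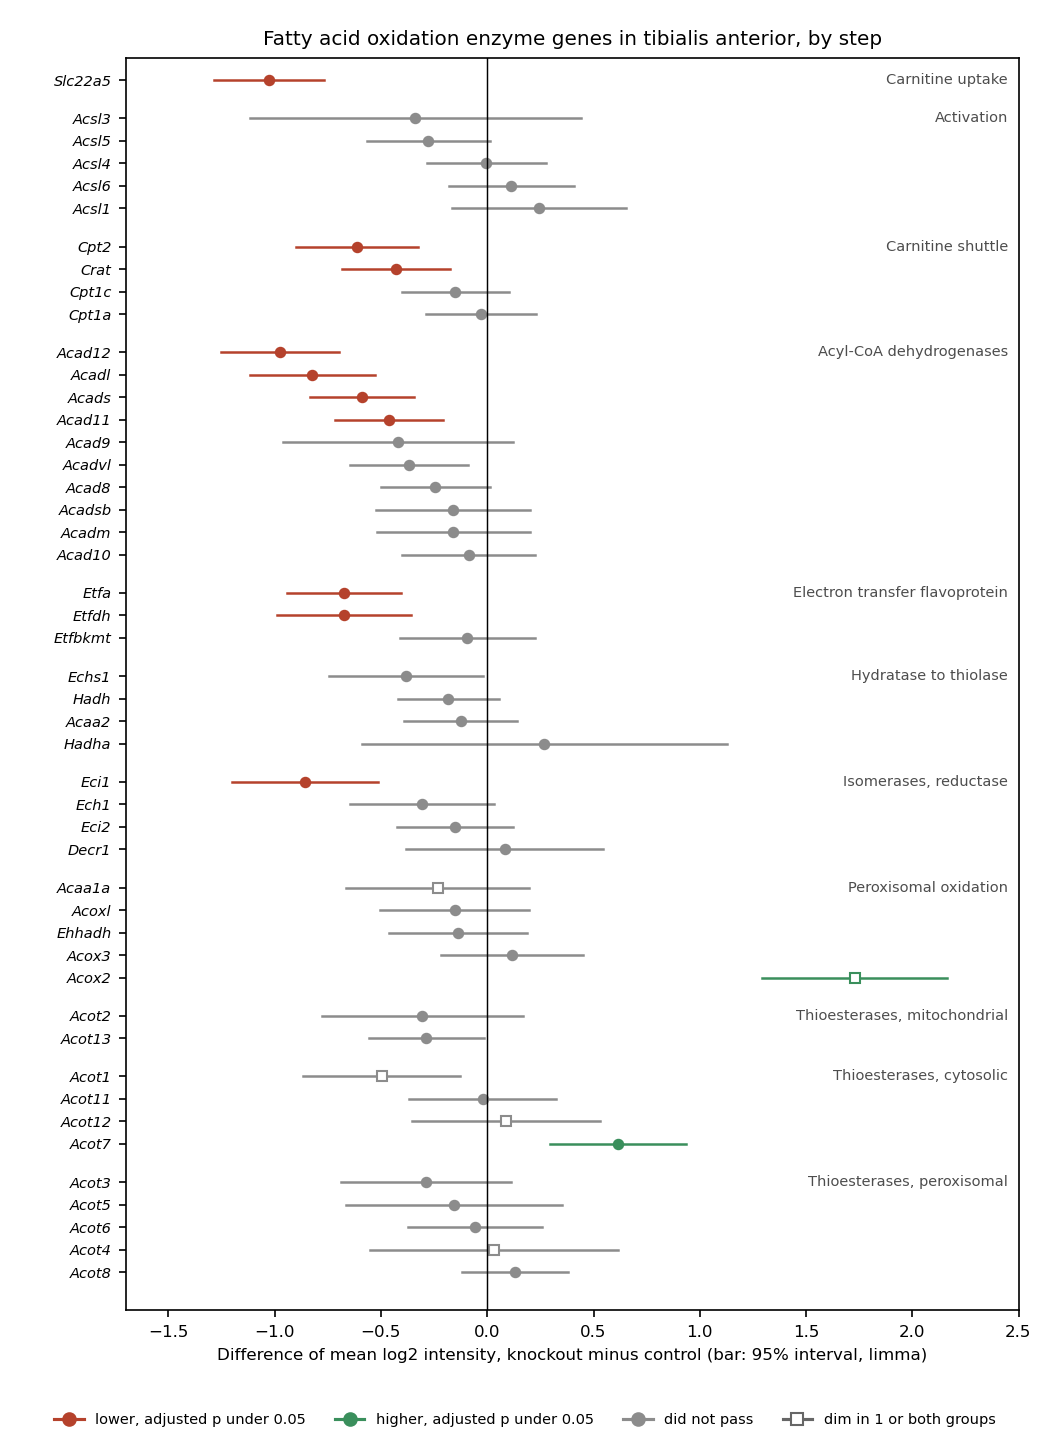
Difference of mean log2 intensity, knockout minus control, for each of the 47 member genes by step, with the 95% interval from limma (4 animals per group). Red points passed the test as lower, green points as higher, grey points did not pass, and open squares were dim in 1 or both groups. All 10 lower members but Slc22a5 were listed as mitochondrial, and Acox2 lies farthest from 0 at 1.73.

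The plot of differences by step shows the lower members in 5 of the upper blocks and in none of the thioesterase or peroxisomal blocks. Places were assigned by family and not measured, and every acyl-CoA dehydrogenase, Acad11 among them, was listed as mitochondrial. By listed place, 9 of 27 mitochondrial members were lower and 0 higher, with a median of -0.31 and 25 below 0. Of 10 members listed as peroxisomal 0 were lower and 1 was higher, with a median of -0.098. Of 4 cytosolic members 0 were lower and 1 was higher, and of 6 members that act before the matrix 1 was lower and 0 were higher. Differences between these places were not tested.

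Slc22a5 encodes OCTN2, the sodium-coupled transporter that brings carnitine into the fibre. It read 605, 618, 514 and 544 in knockout animals 1 to 4, against 1306, 1123, 1171 and 1048 in control animals. The highest knockout animal lay far below the lowest control animal, and the fall was 2.04-fold (log2 difference -1.03 ± 0.12, SE; limma, adjusted p = 0.000396). Its mean over all arrays lay below the median of all genes, so it was not tested under the filter on dim genes. Member promoters were read for nuclear receptor motifs, and that of Slc22a5, the largest fall among the members, is given as an example with no match. It lies on chr11:53891654-53891953 (GRCm38.p6, minus strand, from 250 bases before to 50 after the RefSeq start).
Slc22a5: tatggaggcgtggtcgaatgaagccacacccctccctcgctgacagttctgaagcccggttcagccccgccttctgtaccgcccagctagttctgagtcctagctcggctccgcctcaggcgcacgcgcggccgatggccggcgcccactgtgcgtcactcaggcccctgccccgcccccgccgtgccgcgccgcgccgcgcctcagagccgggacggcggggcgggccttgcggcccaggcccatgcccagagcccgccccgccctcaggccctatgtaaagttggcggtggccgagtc

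Activation to acyl-CoA showed no member that passed the test. Acsl1, the main long-chain synthetase of muscle and heart, read 38337, 58759, 41044 and 44175 in knockout animals and 50547, 41023, 34210 and 29396 in control animals. The groups overlapped, and the difference was 0.24 ± 0.19 (SE; limma, adjusted p = 0.455). Acsl6, a synthetase of polyunsaturated chains, read 7886 to 9706 in knockout and 6878 to 9374 in control animals (0.11 ± 0.13; limma, adjusted p = 0.646). The other synthetases, Acsl3, Acsl4 and Acsl5, ranged from -0.34 to -0.0037, and the median of the 5 was -0.0037. Synthetase transcripts as a group thus stood near the median of all genes, and the intervals of Acsl1 (-0.17 to 0.65) and Acsl6 (-0.18 to 0.41) leave room for changes of moderate size in either direction.

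In the carnitine shuttle, Cpt2, the inner-membrane enzyme that rebuilds acyl-CoA from acylcarnitine in the matrix, was 1.53-fold lower. It read 33009, 31289, 29065 and 28740 in knockout animals, against 52602, 53496, 40066 and 41763 in control animals (log2 difference -0.61 ± 0.13, SE; limma, adjusted p = 0.0148). The knockout animals lay close together, and control animals 1 and 2 lay above control animals 3 and 4. Crat, which buffers matrix acetyl-CoA as acetylcarnitine, was 1.34-fold lower, at 1494, 1776, 1586 and 1694 in knockout animals and 2509, 2159, 2057 and 2092 in control animals (-0.43 ± 0.12; limma, adjusted p = 0.0418). The groups did not overlap, but Crat stood closest to the threshold of the 12 that passed and lost it without any of 7 of the 8 animals. Cpt1a, the outer-membrane enzyme of liver and many other tissues, read 1230 to 1523 in knockout and 1227 to 1504 in control animals (-0.03 ± 0.12; limma, adjusted p = 0.901). Its other row gave -0.34 (limma over all rows, adjusted p = 0.311), which did not pass either.

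All 10 acyl-CoA dehydrogenases lay below 0, and 4 of them passed the test as lower, with a median of -0.39 over the 10. Acadl, the long-chain dehydrogenase, was 1.77-fold lower. Its intensities were 56246, 53348, 48753 and 49392 in knockout animals, against 103998, 106010, 78622 and 81559 in control animals (log2 difference -0.82 ± 0.13, SE; limma, adjusted p = 0.00342). Every knockout animal lay below every control animal, and the control animals again fell into a higher and a lower pair. Acads, the short-chain dehydrogenase, was lower too, at 3382, 3056, 3393 and 3571 in knockout animals and 5167, 5525, 4629 and 4856 in control animals (-0.59 ± 0.11; limma, adjusted p = 0.00779). The spread within each group was small beside the gap between them.

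Acad12 and Acad11 are members of the same family for which less is known in muscle, and ACAD11 acts on long and on 4-hydroxylated chains. Acad12 was 1.97-fold lower, at 1686, 1405, 1395 and 1407 in knockout animals and 3119, 3266, 2495 and 2741 in control animals (-0.98 ± 0.13; limma, adjusted p = 0.000849). Knockout animal 1 lay above the other 3, which were nearly identical. Acad11 was 1.38-fold lower, at 4648, 4317, 3898 and 4076 in knockout animals and 6500, 6005, 5555 and 5278 in control animals (-0.46 ± 0.12; limma, adjusted p = 0.031). The groups did not overlap, and the call was lost without any of 6 animals (knockout 2, 3 and 4, control 1, 2 and 3).

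Acadvl, the very long-chain dehydrogenase of the inner membrane, read 88500, 105842, 87759 and 76700 in knockout animals and 124911, 117678, 112447 and 105598 in control animals. Knockout animal 2 lay just above control animal 4, and the difference of -0.37 ± 0.13 did not pass (limma, adjusted p = 0.0959). It passed as lower without knockout animal 2 (-0.45; limma, adjusted p = 0.0477), with array weights and with the animal as a random block. Acadm, the medium-chain dehydrogenase, read 135497, 175579, 121304 and 100788 in knockout animals and 143069, 151081, 158978 and 131503 in control animals. The knockout animals spread over the whole control range (-0.16 ± 0.16; limma, adjusted p = 0.584; interval -0.52 to 0.20). Acad8, Acad9, Acad10 and Acadsb, of which ACAD9 is also an assembly factor of respiratory complex I and ACAD8 and ACADSB act on branched-chain amino acid intermediates, lay between -0.42 and -0.088 and did not pass. The low end of that range was Acad9, where knockout animal 2 stood at 803 and the other knockout animals at 1530 to 1962.

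Both measured parts of the route from the dehydrogenases to ubiquinone were lower. Etfa, the alpha subunit of the electron transfer flavoprotein, was 1.60-fold lower, at 87353, 87732, 75530 and 79709 in knockout animals and 142041, 148453, 116385 and 121941 in control animals (log2 difference -0.67 ± 0.12, SE; limma, adjusted p = 0.00631). Its other row gave -0.80 (limma over all rows, adjusted p = 0.0030), so both rows moved the same way. Etfdh, the dehydrogenase that passes the electrons to ubiquinone, was 1.59-fold lower, at 31781, 33434, 28226 and 22423 in knockout animals and 49127, 46687, 47388 and 39983 in control animals (-0.67 ± 0.14; limma, adjusted p = 0.0149). In both genes the highest knockout animal lay below the lowest control animal. Etfbkmt stood at 1606 to 2385 in knockout and 1834 to 2294 in control animals, a difference of -0.093 (limma, adjusted p = 0.733). The promoters of Etfa and Etfdh are shown because the pair fell by the same amount while their motif content differed: capitals mark a pair of AGGTCA-like hexamers in the same direction spaced by 1 base, read on the opposite strand, which only Etfa held. They lie on chr9:55512194-55512493 and chr3:79628718-79629017 (GRCm38.p6, both on the minus strand).
Etfa: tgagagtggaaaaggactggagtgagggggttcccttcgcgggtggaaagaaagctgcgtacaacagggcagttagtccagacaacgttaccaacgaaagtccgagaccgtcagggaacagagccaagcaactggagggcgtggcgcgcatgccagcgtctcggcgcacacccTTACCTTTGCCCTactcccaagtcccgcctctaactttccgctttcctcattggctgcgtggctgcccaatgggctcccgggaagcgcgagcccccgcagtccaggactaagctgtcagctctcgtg
Etfdh: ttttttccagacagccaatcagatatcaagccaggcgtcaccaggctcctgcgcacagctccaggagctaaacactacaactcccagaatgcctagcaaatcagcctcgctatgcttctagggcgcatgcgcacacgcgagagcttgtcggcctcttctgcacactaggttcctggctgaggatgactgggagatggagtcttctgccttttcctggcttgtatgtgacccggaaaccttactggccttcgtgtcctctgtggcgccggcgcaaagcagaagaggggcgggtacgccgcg

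**Figure D2:**
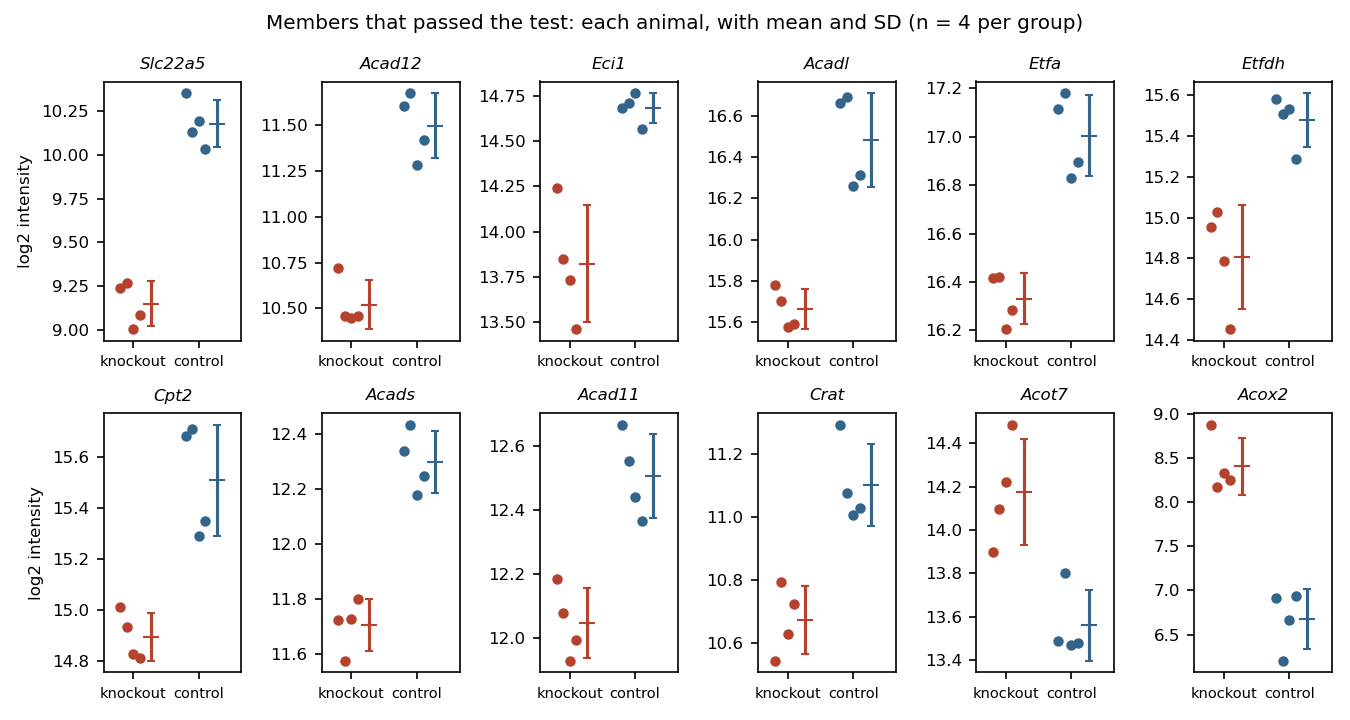
Log2 intensity of each animal (points, mean of 3 hybridisations) for the 12 members that passed the test, with knockout left and control right and the mean and SD beside them (n = 4 animals per group); each panel has its own axis, which does not start at 0. In all 12 the groups do not overlap; knockout animals lie lower in 10 and higher in Acot7 and Acox2.

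The plot by animal shows the distance between groups against the spread within them. Relative to its SE that distance was widest in Slc22a5, Acox2 and Acad12 and narrowest in Crat and Acad11. In Cpt2, Acadl, Etfa and Acad12 the control spread came mostly from a gap between control animals 1 and 2 and control animals 3 and 4.

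The later steps of the mitochondrial cycle, hydratase to thiolase, held no member that passed. Echs1, the short-chain enoyl-CoA hydratase, read 38510, 27122, 31540 and 31383 in knockout animals and 42830, 54512, 33972 and 37492 in control animals. Of the knockout animals only animal 1 reached into the control range, and the difference was -0.38 ± 0.16 (limma, adjusted p = 0.185). Hadh, the hydroxyacyl-CoA dehydrogenase, read 104847 to 126946 in knockout and 126262 to 138242 in control animals (-0.18 ± 0.11; limma, adjusted p = 0.327). Acaa2, the thiolase, read 120250 to 151707 in knockout and 131025 to 164011 in control animals (-0.13 ± 0.12; limma, adjusted p = 0.557). Both sets of animals overlapped, and the intervals reached from -0.42 to 0.055 for Hadh and from -0.39 to 0.14 for Acaa2, so a fall of the size seen in Etfa lies outside them.

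Hadha, the alpha subunit of the trifunctional protein, could not be read reliably. Its single arrays ran from 920 to 26144, and the SD between hybridisations of the same animal was 1.42 on the log2 scale, beside a median of 0.158 over members. The animal values were 8959, 11093, 12113 and 3353 in knockout and 4296, 6566, 6067 and 11223 in control animals, with knockout animal 4 lowest of all and control animal 4 above every other control animal (0.27 ± 0.39; limma, adjusted p = 0.716). The interval of -0.59 to 1.13 includes falls as large as that of Acads and rises larger than that of Acot7.

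Among the enzymes for unsaturated chains, Eci1, the isomerase that moves a double bond into the position the hydratase accepts, was 1.81-fold lower. It read 19367, 14794, 13634 and 11292 in knockout animals, against 26300, 26805, 27830 and 24298 in control animals (log2 difference -0.86 ± 0.16, SE; limma, adjusted p = 0.00662). The control animals lay close together, while the knockout animals spread widely below them. Ech1, the dienoyl-CoA isomerase, read 55561, 54416, 49827 and 40084 in knockout and 70602, 71188, 51051 and 55402 in control animals, and knockout animals 1 and 2 lay above control animal 3 (-0.31 ± 0.15; limma, adjusted p = 0.248). Eci2, an isomerase of mitochondria and peroxisomes, read 28520 to 36295 in knockout and 32559 to 40858 in control animals (-0.15 ± 0.12; limma, adjusted p = 0.483). Decr1, the dienoyl-CoA reductase, read 15745 to 19576 in knockout and 10335 to 22245 in control animals (0.08 ± 0.21; limma, adjusted p = 0.846). Its hybridisations of the same animal differed by an SD of 0.785, the next largest after Hadha: 1 array of control animal 1 stood at 1809 and the other arrays at 14030 to 26939.

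Of the 5 peroxisomal cycle members analysed, only Acox2 passed the test. Acox2 read 471, 288, 322 and 306 in knockout animals, against 121, 73.7, 101 and 123 in control animals. Control muscle was dim for it, so the rise is given as at least 2.73-fold against the dim level (measured log2 difference 1.73 ± 0.20, SE; limma, adjusted p = 0.000377). Every knockout animal lay above 125 and every control animal below it. Ehhadh, the bifunctional peroxisomal enzyme, read 618 to 757 in knockout and 585 to 867 in control animals (-0.14 ± 0.15; limma, adjusted p = 0.608). Acaa1a, a peroxisomal thiolase, was dim in both groups and is given without a fold. The other oxidases described were Acox3, of branched chains, at 0.12 and Acoxl at -0.15, and neither passed. The Acox2 promoter printed here was chosen because it alone among the promoters of the higher members held the pair of hexamers, given in capitals just after the start. It lies on chr14:8258790-8259089 (GRCm38.p6, minus strand). The other Acox2 promoter, on chr14:8258970-8259269, did not hold the pair, so the match depends on the start used.
Acox2: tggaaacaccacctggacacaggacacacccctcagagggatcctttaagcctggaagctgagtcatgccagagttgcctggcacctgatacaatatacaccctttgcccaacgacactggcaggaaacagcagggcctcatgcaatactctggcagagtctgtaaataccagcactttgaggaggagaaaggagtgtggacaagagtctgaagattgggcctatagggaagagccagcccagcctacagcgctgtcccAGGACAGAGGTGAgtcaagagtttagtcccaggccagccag

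Of 11 thioesterases, which hydrolyse acyl-CoA, 0 were lower and 1 was higher, with a median of -0.059. Acot7, a long-chain thioesterase of the cytosol best known from neurons, read 15254, 17517, 19099 and 22916 in knockout animals, against 11479, 14289, 11354 and 11428 in control animals (log2 difference 0.61 ± 0.15, SE; 1.53-fold; limma, adjusted p = 0.0237). The groups did not overlap, although control animal 2 came close to knockout animal 1, and the call was lost without any of 5 animals (knockout 3 and 4, control 1, 3 and 4). The other row of Acot7 went the other way, at a mean of 1861 in knockout and 3183 in control animals (-0.77; limma over all rows, adjusted p = 0.0036), and the mean of both rows gave -0.080. The direction of Acot7 thus depends on the row, and the sources used here do not say which transcripts each row detects.

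Acot1, a cytosolic thioesterase induced by PPARalpha agonists in liver, read 120, 132, 82.2 and 116 in knockout and 193, 138, 140 and 160 in control animals. The groups did not overlap, knockout muscle was dim for it, and the difference of -0.50 ± 0.17 did not pass (limma, adjusted p = 0.0920). Acot2, its mitochondrial relative, read 4393, 5402, 3476 and 2943 in knockout and 6148, 5691, 4538 and 3565 in control animals (-0.31 ± 0.22; limma, adjusted p = 0.413), with the groups overlapping. Acot13, a mitochondrial thioesterase of another fold, read 43569 to 52975 in knockout and 55146 to 70253 in control animals, with no overlap and a difference of -0.29 ± 0.12 that did not pass (limma, adjusted p = 0.184). The remaining members (Acot3, Acot4, Acot5, Acot6, Acot8, Acot11 and Acot12) lay between -0.29 and 0.13. Acot1 to Acot6 are close copies of each other in the mouse, and whether each row is specific to 1 of them is not known here.

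The members also differed between the 2 ranges of animal numbers in the sample titles, here called A and B, each of which held 2 knockout and 2 control animals. The titles do not say what a range stands for. In the knockout group, 34 of 47 members (72.3%) were higher in range A than in range B, with a median difference of 0.152, and in the control group 35 of 47 (74.5%), with a median of 0.154. Over all genes tested 53.5% were higher in range A in knockout animals (median 0.017) and 49.4% in control animals (median -0.0058). This is given without a test. Of the 10 members called lower, 8 in knockout and 10 in control animals were higher in range A.

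Within each range the difference between genotypes kept its direction in all 12 members that passed, and in 35 of the 47. For the 12 this was fixed by the lack of overlap between the groups, so it gives no separate support. With the range as a block the same 12 members passed. In range A alone 0 passed and in range B alone 6 did (Acad12, Acadl, Eci1 and Slc22a5 lower, Acot7 and Acox2 higher), each from 2 animals against 2. Slc22a5 differed by -0.99 in range A and -1.07 in range B, Acadl by -0.94 and -0.71, and Eci1 by -0.65 and -1.07. No member passed a test of the difference between ranges (limma interaction, lowest adjusted p = 0.425, with 3 members at an unadjusted p under 0.05).

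**Figure D3:**
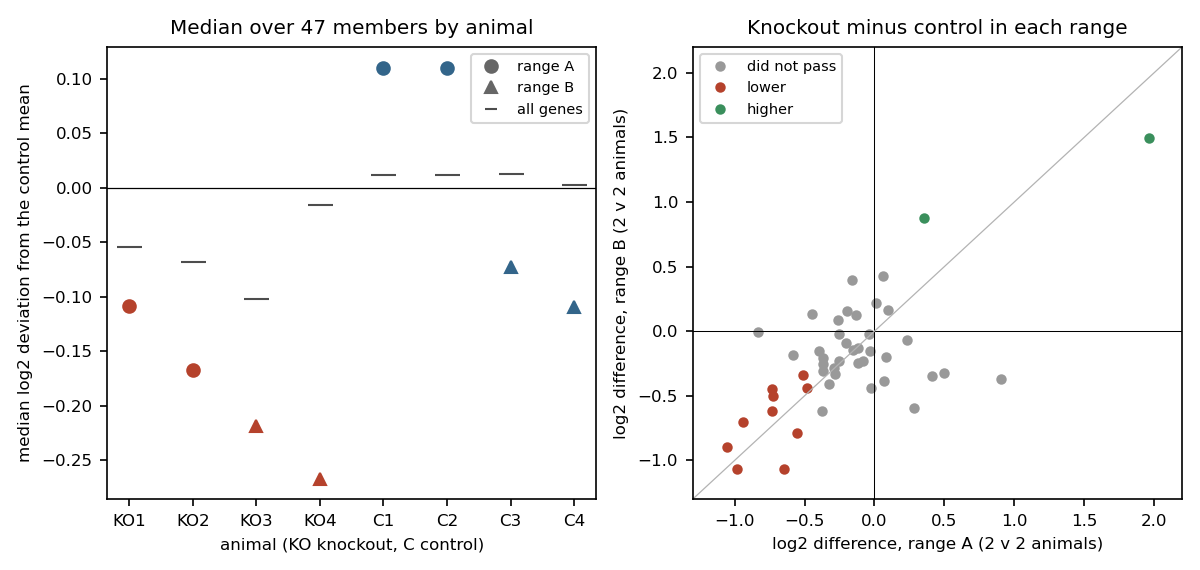
Left, median over the 47 members of each animal's log2 deviation from the control mean (circles range A, triangles range B; dashes, the median over all genes tested), with the 4 knockout animals left of the 4 control animals. Right, knockout minus control log2 difference of each member in range B against range A (2 animals per group in each), with a line of equality. Knockout medians run from -0.267 to -0.109 and control medians from -0.109 to 0.110. The 12 members that passed lie in the quadrants of equal sign, as members without overlap between groups must.

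The left panel of that plot places the animals by their median over members. The medians were -0.109, -0.167, -0.219 and -0.267 in knockout animals 1 to 4, against 0.110, 0.110, -0.073 and -0.109 in control animals. Control animal 4 stood level with knockout animal 1, which lies in the other range, while within each range both knockout animals lay below both control animals.

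The genes around the members were read from lists of uptake proteins, other oxidation enzymes, peroxisome proteins, regulators and lipid droplet proteins. Of 21 other oxidation enzymes and carriers, 3 were lower and 2 higher, with a median of -0.091. The lower ones included Slc25a20, the carnitine-acylcarnitine carrier between CPT1 and CPT2, which was 1.59-fold lower at 15002 to 18687 in knockout and 22209 to 31640 in control animals (limma, adjusted p = 0.0164), and Acat1, the mitochondrial acetoacetyl-CoA thiolase, which was 1.71-fold lower (log2 difference -0.78 ± 0.14; limma, adjusted p = 0.00719); the other was Hsd17b10, a matrix dehydrogenase of short and branched chains. The higher ones were Bdh1, the ketone body dehydrogenase (1.25 ± 0.19; limma, adjusted p = 0.00218), and Acss1, the mitochondrial acetyl-CoA synthetase (1.06 ± 0.18; limma, adjusted p = 0.00494). In all of these genes, Hsd17b10 among them, the groups did not overlap.

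Of 12 uptake and binding genes only Gpihbp1, which carries lipoprotein lipase to the capillary surface, passed, at 7632 to 10814 in knockout and 16470 to 23167 in control animals (2.09-fold lower; limma, adjusted p = 0.00262). Of 15 peroxisome genes 3 were lower, namely Abcd2, an importer of very long-chain acyl-CoA (1.99-fold), and the assembly factors Pex2 (1.42-fold) and Pex7 (1.43-fold), and 0 were higher. Of 12 lipid droplet genes 2 were lower and 3 higher. Plin5, which ties droplets to mitochondria in oxidative tissue, was 2.72-fold lower, at 1669, 2169, 1278 and 1160 in knockout animals and 5188, 3996, 4213 and 3369 in control animals (limma, adjusted p = 0.00142), and Cidec was lower too. Plin3, Cidea and Pnpla3 were 1.66-fold, 1.94-fold and 2.63-fold higher.

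Of 25 regulators and their targets 3 were lower and 0 higher, with a median of -0.12. They were Sirt3, the mitochondrial deacetylase that acts on enzymes such as the long-chain dehydrogenase (1.69-fold, at 8742 to 10395 in knockout and 14793 to 18005 in control animals), Lpin1, a coactivator and phosphatidate phosphatase (1.48-fold), and Rxrg, a partner of PPAR receptors (1.45-fold). The receptors and coactivators best known for driving the pathway did not pass. Ppara differed by -0.064 ± 0.14, Ppard by 0.037 ± 0.13, Ppargc1a by 0.14 ± 0.19 and Esrra by 0.0053 ± 0.12 (these 4, and the next 3 genes, were chosen for their known role after the values were seen). Nor did Pdk4 (-0.53 ± 0.37), Ucp3 (-0.30 ± 0.26) or Angptl4 (0.29 ± 0.37), commonly used readouts of PPAR activity, whose animals spread widely.

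**Figure D4:**
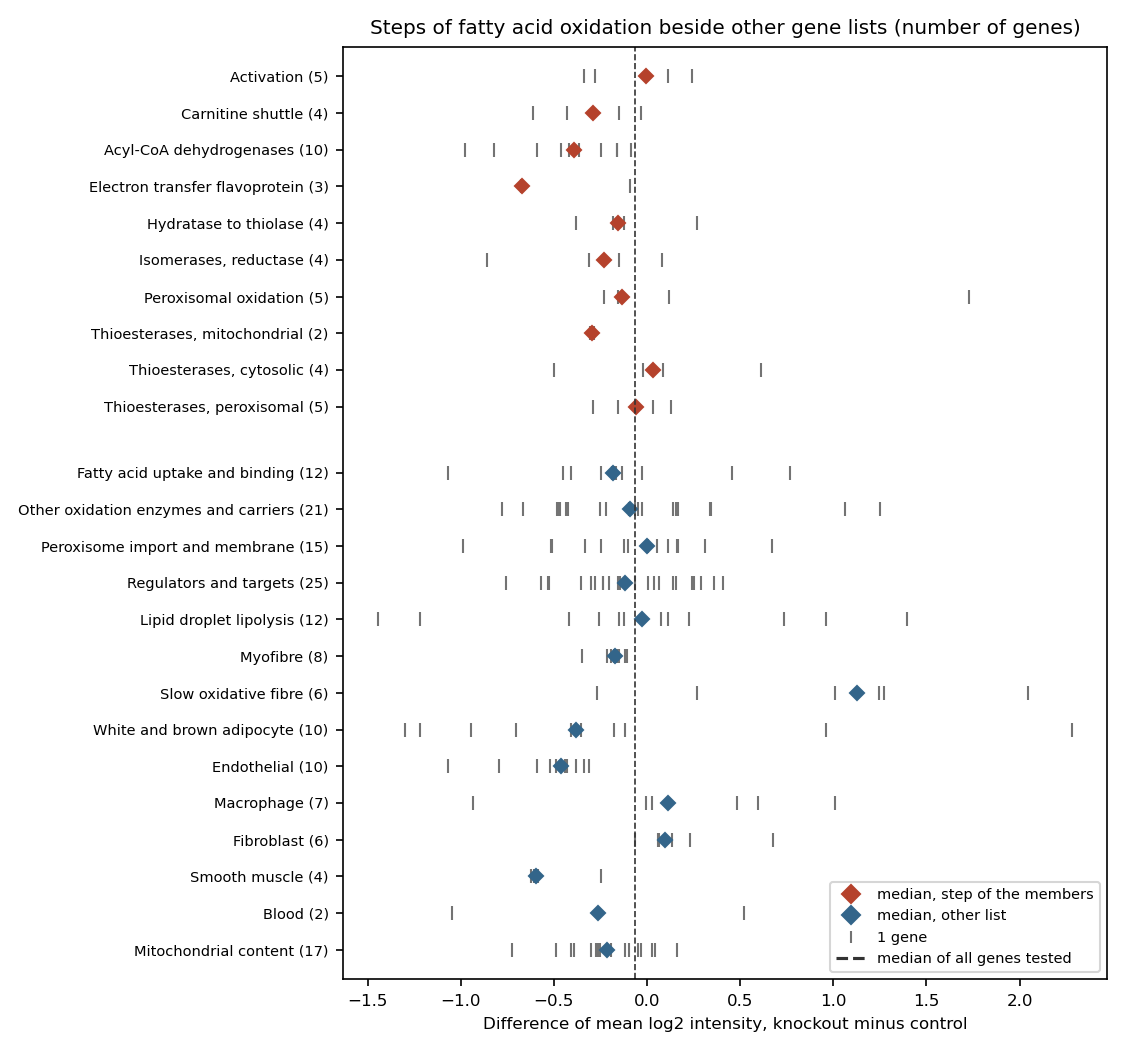
Difference of mean log2 intensity, knockout minus control, of every measured gene (ticks) by step of the members and by other list, with the median of each list (diamonds, red for the members' steps, blue for other lists) and the median of all genes tested, -0.066 (dashed line). The electron transfer flavoprotein and the acyl-CoA dehydrogenases have the lowest medians among the steps shown, which leave out carnitine uptake with its single gene, and slow oxidative fibre genes have the highest of any list.

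The plot of lists sets the members beside markers of fibres, mitochondria and other cell types, whose part in the members' falls was not tested. General mitochondrial genes had a median of -0.22, and 2 of 17 were lower, Ndufs3 and Uqcrc2, with 0 higher. Their summed intensity ran from 2066570 to 2500860 in knockout and from 2434510 to 2895820 in control animals. Of 8 myofibre genes 0 passed (median -0.17, summed 2021840 to 2976940 in knockout and 2469430 to 3121770 in control animals). In both lists the summed levels of the groups overlapped.

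Of 6 slow oxidative fibre genes 4 were higher and 0 lower, with a median of 1.13. Atp2a2, the slow calcium pump, was 4.13-fold higher, Tnnt1 2.42-fold, Casq2 2.37-fold and Tnni1 2.01-fold. Tnnc1 (log2 difference 0.27, limma, adjusted p = 0.293) and Tpm3 (-0.27, limma, adjusted p = 0.318) did not pass, and Tpm3 went the other way. The summed intensity of the list was 71859 to 101642 in knockout and 43713 to 55121 in control animals, without overlap. In the same animals the slow fibre genes that passed were all higher, and the members listed as mitochondrial that passed were all lower.

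Of 10 endothelial markers 3 were lower (Gpihbp1, Icam2 and Emcn) and 0 higher, with a median of -0.46 and sums of 46140 to 62164 in knockout and 69391 to 90900 in control animals. Of 4 smooth muscle markers 3 were lower (Tagln, Rgs5 and Acta2), with a median of -0.60 and sums of 17216 to 22791 in knockout and 26976 to 34012 in control animals, while the other marker, Cnn1, was dim in both groups. Of 10 adipocyte markers 3 were lower (Lep, Cidec and Cfd) and 2 higher (Ucp1 and Cidea), with sums of 57919 to 95870 in knockout and 84400 to 104638 in control animals, and Pparg was dim in both groups. Endothelial and smooth muscle sums did not overlap between groups, and adipocyte sums did. The endothelial sum included Gpihbp1, also in the uptake list, at a mean of 9402 in knockout and 19688 in control animals. In most other endothelial markers, such as Pecam1 and Cdh5, the groups overlapped. Most of the adipocyte sum was Fabp4, at a mean of 60794 in knockout and 80713 in control animals, so it says little about the dimmer markers. Likewise, most of the smooth muscle sum was Acta2, at a mean of 17999 in knockout and 27706 in control animals.

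Of 7 macrophage markers 1 was lower (Cd163, with the groups overlapping), with sums of 8859 to 22180 in knockout and 8490 to 14471 in control animals. Cd68, Itgam and Adgre1 went the other way, at log2 differences of 1.01, 0.60 and 0.48, and did not pass. Nor did Cd14 (0.11), Csf1r (0.028) and Mrc1 (-0.0060). The highest sum was that of knockout animal 3, where Cd68 stood at 10902.5. Of 6 fibroblast markers 0 passed (sums of 146411 to 276729 in knockout and 159756 to 236341 in control animals), with Col1a1 dim in both groups. Most of the fibroblast sum was Dcn, at a mean of 159727 in knockout and 167246 in control animals. Of 2 blood markers 1 was lower (Alas2), with sums of 2138 to 3451 in knockout and 3506 to 4536 in control animals. The other, Ptprc, was higher in every knockout animal than in any control animal but did not pass (log2 difference 0.52; limma, adjusted p = 0.157). The sums overlapped between groups for macrophage and fibroblast markers and did not for the blood markers, where the 2 genes went opposite ways.

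RefSeq promoters of GRCm38.p6, from 250 bases before to 50 after the start, were found for 41 of the 47 members, as 48 promoters. Both strands were searched for the nuclear receptor hexamer AGGTCA, for a pair of these hexamers in the same direction spaced by 1 base with at most 1 mismatch in each, as bound by PPAR with RXR, and for TCAAGGTCA, the element of oestrogen-related receptors, which contains the hexamer. The exact hexamer stood in 13 of 48 member promoters (27.1%), against 16.3% of 32851 promoters in all, but in 0 of the 12 promoters of members that passed the test. The spaced pair stood in 3 of 48 (6.25%), against 2.4% of all, and in 2 of the 12. These were the Etfa and Acox2 promoters printed above, genes that moved in opposite directions, and the other was that of Acot12. The element TCAAGGTCA stood in 1 of 48 (2.08%, at Acsl6), against 0.423% of all, and in 0 of the 12. Most members that passed, Slc22a5 and Etfdh among them, held none of the searched letters in this window.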

How the data were processed

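Total RNA of the tibialis anterior, extracted with Trizol per the labels' protocols, was hybridised 3 times per animal; the label field names Cy3 and the protocol Cy5. The deposited table held linear intensity values, scaled by the authors to a common median. The sources used here give neither scanner nor background correction. Between 0% and 5.37% of values per array were at or below 0. From the deposited intensities, log2 values were computed after a floor at the 5th percentile of all values (38.8), and the hybridisations of an animal were averaged. Of 26423 rows, 20377 had 1 symbol in the platform annotation, updated through RefSeq; the brightest row stood for a gene. Groups were compared with limma 3.58.1 (R 4.3.3; Python 3.11.15 for descriptions) on 8 animal means, with Benjamini-Hochberg adjustment over 17742 genes and a threshold of 0.05. The fit was tested on simulated data. SE and intervals come from limma, and a gene at or below 125 in a group was treated as dim there.

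The members and lists were chosen with earlier results of these data known. Members named with values were a fixed set of core muscle enzymes and all that passed; list genes were named where they passed, up to 4 per list by smallest p. Ppara, Ppard, Ppargc1a, Esrra, Pdk4, Ucp3, Angptl4, Hsd17b10, Cfd, Cnn1 and Pparg fall outside this rule. So do Pecam1, Cdh5, Fabp4, Cd68, Itgam, Adgre1, Cd14, Csf1r, Mrc1, Ptprc, Tnnc1, Tpm3 and Dcn. Alternatives were other normalizations, a filter on dim genes, the mean over rows, every row as a feature, an added constant, the median of hybridisations, random animal and replicate blocks, other variance models, the range of animal numbers and leaving out animals or hybridisations; a higher floor was chosen after seeing the data.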

Additional observations from a re-analysis of the deposited data

Results flagged for a closer look

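In 5 of the 94 groups of 4 animals (47 members in each genotype), the highest or lowest animal stood apart from the other 3 by more than the critical share of the group's range, where chance gives about 1 in 20. All values are log2 intensities. Acad12 in knockout animal 1 was 10.7, with the other knockout animals at 10.4 to 10.5. Acot11 in knockout animal 1 was 11.7, with the others at 11.4 to 11.5. Acad10 in knockout animal 4 was 9.08, with the others at 8.60 to 8.68. Acot7 in control animal 2 was 13.8, with the others at 13.5. Acot3 in control animal 2 was 7.49, with the others at 7.75 to 7.79. Of these members Acad12 and Acot7 passed the test, and both also passed without that animal.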

How the results depend on the processing

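The 12 members that passed were the same under quantile normalization, cyclic loess, an added constant, the higher floor, a trend with robust variances and the range as a block. Median centring could not change the result, because the deposited arrays already shared a median. Between 8 and 10 members were lower and between 1 and 2 higher when 1 animal or hybridisation was left out, and all-gene counts then ran from 418 to 966 lower and from 522 to 727 higher. The filter on dim genes took Slc22a5 and Acox2 out of the test and left 9 lower members and 1 higher member; the mean over rows lost Acot7 and left 1 higher member. Range A alone gave 0 lower and 0 higher members (11 lower and 51 higher genes) and range B alone 4 lower members (197 lower and 311 higher genes); both use fewer animals. Counts of all genes rose to 1240 higher under quantile normalization, 1309 higher under cyclic loess, and 2333 lower and 1276 higher with array weights, under which 12 members were lower (Acadvl and Acot1 gained). With the animal as a random block 1815 were lower and 1334 higher, and with the hybridisation number as replicate block as well 1685 and 1293, with 11 lower (Acadvl gained) and 2 higher members in both. For each hybridisation number, deviations from the animal's own mean were averaged over the animals of a group and correlated between groups over genes. The correlations were 0.071, 0.457 and 0.170 for the same number and -0.376 to 0.278 for different numbers. The deviations of an animal cancel out over its hybridisations, so these correlations are not independent of each other. The main fit used no block for the numbers because the labels do not pair samples by them. Whether hybridisations of 1 number share an effect was not tested. The median over members ran from -0.254 to -0.120, and quantile normalization and cyclic loess brought that of all genes to -0.014 and -0.0026. Of the members named with values, these differences reversed, and none of them passed apart from Acot7: Acaa1a 0.0040 (quantile), Acot7 -0.080 (mean over rows), Decr1 -0.185 (median of hybridisations), Acadm 0.069 (range A), Hadha -0.373 and Decr1 -0.070 (range B). Counting all 47 members, 12 had opposite signs in the 2 ranges, none of which passed. Leaving out 1 animal or hybridisation moved Cpt1a from -0.12 to 0.070, Decr1 from -0.25 to 0.26, Acaa2 from -0.21 to 0.0083 and Hadha from -0.082 to 0.96. The cause was not tested. Dim signal limits Acaa1a, Acot4 and Acot12.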
